A study of Mus musculus with 6 samples.

Results

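Endothelins are short secreted peptides that act on G protein-coupled receptors. The genes described here are the 3 ligand genes Edn1, Edn2 and Edn3, the 2 receptor genes Ednra and Ednrb, and the 2 converting enzyme genes Ece1 and Ece2. They were taken by gene symbol, and all 7 were found among the 20637 genes listed for each library. The family was selected with earlier results of the same genotype comparison known, so the group differences of its members are given as descriptions and not as tests.

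Each endothelin is made as a long precursor. Proteases of the furin type first cut it to big endothelin at paired basic residues, and an endothelin-converting enzyme then releases the active peptide by cutting after a tryptophan. The type A receptor, encoded by Ednra, is the main contractile receptor of smooth muscle and prefers the products of Edn1 and Edn2 over that of Edn3. The type B receptor, encoded by Ednrb, binds all of the ligands alike, drives nitric oxide release in endothelium and clears endothelin from the circulation. Ligand from Edn3 acting on the type B receptor is needed for melanocytes and the enteric nervous system. In the uterus, endothelin is known as a constrictor of myometrium and of blood vessels.

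The libraries were made from polyadenylated RNA of the whole uterus of females on postnatal day 21, and 3 of them carry the label Nat10 f/f (controls) and 3 the label Nat10 d/d (Nat10-deleted). The product of Nat10 transfers acetyl groups to cytidines of RNA, and f/f and d/d are the usual notation for a floxed and a deleted allele on both chromosomes. The labels name no treatment of either group. The labels do not name the strain, the Cre driver or the cells in which the allele is deleted, and nothing says which libraries shared a litter or day, so the spread given below is that between these libraries. Values are FPKM, that is, fragments scaled to transcript length and to the mapped fragments of the library, which allows levels of different genes to be set side by side. Nat10 itself had values of 13.2, 16.4 and 9.95 FPKM in controls and 5.57, 5.23 and 5.53 FPKM in d/d libraries, which left 41.4% of the control mean (exact permutation test, two-sided p = 0.1, the smallest that 3 libraries against 3 allow; limma adjusted p 0.669 over all genes). Summed FPKM ranged from 500764 to 549263 per library, the deepest library was estimated to be 1.262 times as deep as the shallowest, and total fragment numbers were unknown. All 7 smooth muscle, 6 stromal, 7 epithelial and 10 endothelial marker genes reached 1 FPKM in at least 3 libraries, in tissue labelled as whole uterus.

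The ligand genes differ in a short stretch of the second of their 5 exons, which is shown here because the receptors and enzymes described below act on what it encodes. Each line holds 12 coding bases before the mature peptide, its 63 bases (21 codons) and 6 bases after it. Capitals mark the 4 cysteine codons of the peptide and its last codon, the tryptophan after which the converting enzymes cut. Sequences were read from GENCODE release M21 transcripts, 5′ to 3′, on the plus strand of GRCm38.
Edn1 (chr13:42303637-42303717): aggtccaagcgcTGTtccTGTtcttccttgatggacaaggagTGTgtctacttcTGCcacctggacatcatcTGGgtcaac
Edn2 (chr4:120161939-120162019): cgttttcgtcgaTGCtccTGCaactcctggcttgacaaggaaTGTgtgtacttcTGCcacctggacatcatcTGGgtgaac
Edn3 (chr2:174761737-174761817): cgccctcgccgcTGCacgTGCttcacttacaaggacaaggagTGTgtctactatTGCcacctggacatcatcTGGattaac
In all 3 genes the last 2 codons before the peptide encode basic residues, the kind of site that furin-type proteases cut. Over the 63 bases of the mature peptide, Edn1 and Edn2 were identical at 53 positions, Edn1 and Edn3 at 50, and Edn2 and Edn3 at 48. Edn3 was thus the most distant from both of the others in this stretch.

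In control uteri the converting enzyme Ece1 and the receptor Ednra stood highest of the 7 genes, with means of 32.3 ± 2.98 and 31.7 ± 0.355 FPKM (SD, n = 3). Their control ranges overlapped, so no order between them can be given. Edn3 followed at 15.4 ± 0.378 FPKM, which was 2.3 times the level of the next gene and made it the leading ligand gene of the control uterus. Ednrb, at 6.69 ± 1.72, and Edn1, at 6.11 ± 0.848 FPKM, came next and overlapped with each other. Ece2 was lower, at 3.38 ± 0.913 FPKM, and Edn2 lowest, at 0.304 ± 0.0742 FPKM (SD, n = 3). Every other pair of neighbours in this order was separated in all 3 control libraries. Of all listed genes, 12.8% had a control mean as high as that of Ece1 or higher, 27.2% as high as that of Edn3, and 45.5% as high as that of Edn1.

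**Figure D1:**
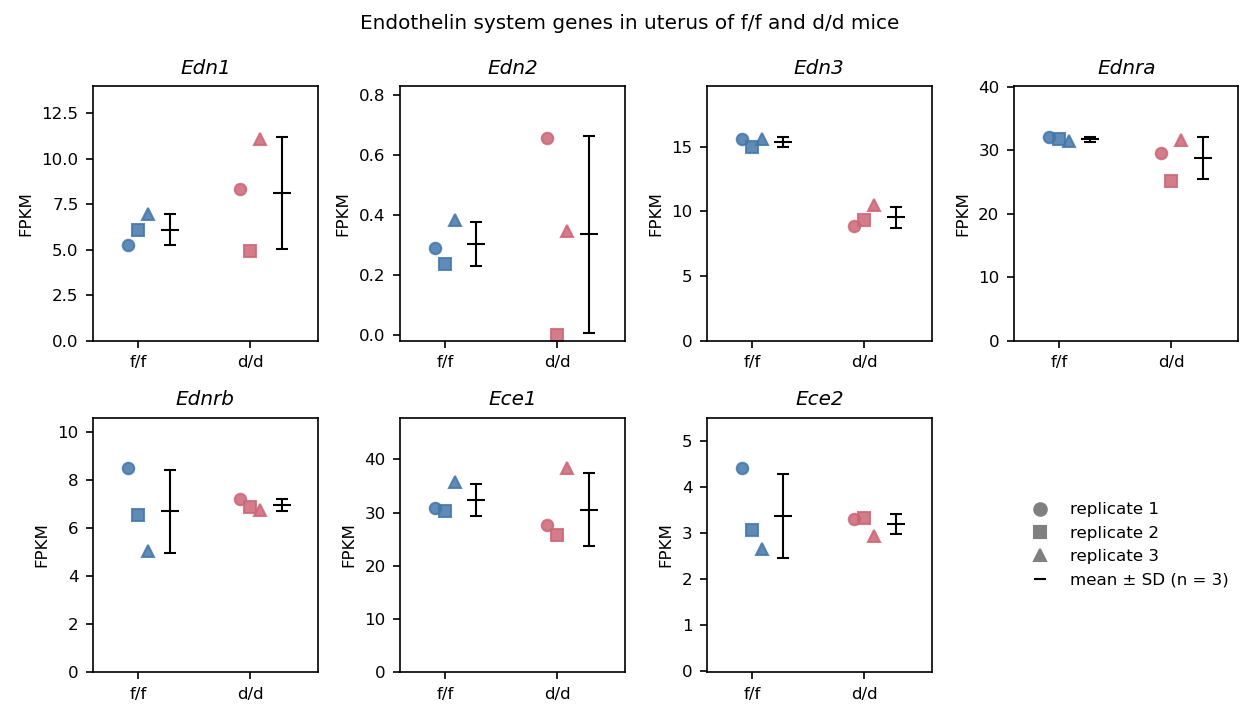
FPKM of the 7 endothelin system genes in f/f (blue) and d/d (red) uteri, with 1 symbol per library and the mean ± SD (n = 3) in black beside it. For Edn3 the d/d libraries, at 8.87 to 10.5, all lie below the f/f libraries, at 15 to 15.6, and for the other 6 genes the groups overlap.

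Among the ligands, Edn3 was lower in every Nat10-deleted uterus than in any control. Edn3 (ENSMUSG00000027524; chromosome 2, 174760619 to 174784042, plus strand) had values of 15.6, 15 and 15.6 FPKM in controls and 8.87, 9.36 and 10.5 FPKM in d/d libraries 1, 2 and 3. The 3 controls lay close together, the 3 deleted libraries did as well, and a wide gap separated the groups. The d/d mean was 9.57 ± 0.817 FPKM (SD, n = 3), or 62.1% of the control mean. On the log2(FPKM + 1) scale, on which low genes appear to change less than they do, the difference between d/d and f/f was -0.64 with a standard error of 0.11. Of the 12640 genes with at least 1 FPKM in at least 3 libraries, 0.522% had a larger decrease. When each library was left out in turn, the difference stayed between -0.70 and -0.59. Nat10 lies on the same chromosome (103721256 to 103761270, minus strand).

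Edn1 did not separate the groups. Edn1 (ENSMUSG00000021367; chromosome 13, 42301476 to 42307990, plus strand), the ligand made mainly by endothelium and also by epithelia, had values of 5.27, 6.08 and 6.97 FPKM in controls and 8.33, 4.95 and 11.1 FPKM in d/d libraries 1, 2 and 3. Replicates 1 and 3 of the deleted uteri lay above every control, and replicate 2 lay below every control. The d/d mean was 8.12 ± 3.08 FPKM (SD, n = 3), so the spread among deleted uteri exceeded the difference between the groups. The log2 difference was 0.31 with a standard error of 0.25. It was 0.59 without d/d replicate 2 and 0.08 without d/d replicate 3.

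Edn2 (ENSMUSG00000028635; chromosome 4, 120161206 to 120167360, plus strand), a ligand gene best known from the ovulating follicle, stayed under 1 FPKM in all 6 libraries and was therefore not part of the fit. It had values of 0.29, 0.238 and 0.384 FPKM in controls and 0.659 and 0.347 FPKM in d/d libraries 1 and 3, and was listed at 0 in d/d replicate 2. The deleted libraries thus held both the highest and the lowest value, and no difference was detectable at this level.

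The balance of the ligand genes followed from these values. The ratio of Edn3 to Edn1 FPKM was 2.96, 2.46 and 2.24 in controls and 1.07, 1.89 and 0.943 in d/d libraries 1, 2 and 3, without overlap. In d/d replicate 3 Edn1 was the higher of the pair, which occurred in no other library. Edn3 made up 68% to 73.7% of the summed ligand FPKM in controls and 47.8% to 65.4% in deleted uteri. The sum itself overlapped between the groups, at 21.2 to 23 FPKM in controls and 14.3 to 21.9 FPKM in deleted uteri. The highest deleted sum was that of d/d replicate 3, the library with the most Edn1.

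**Figure D2:**
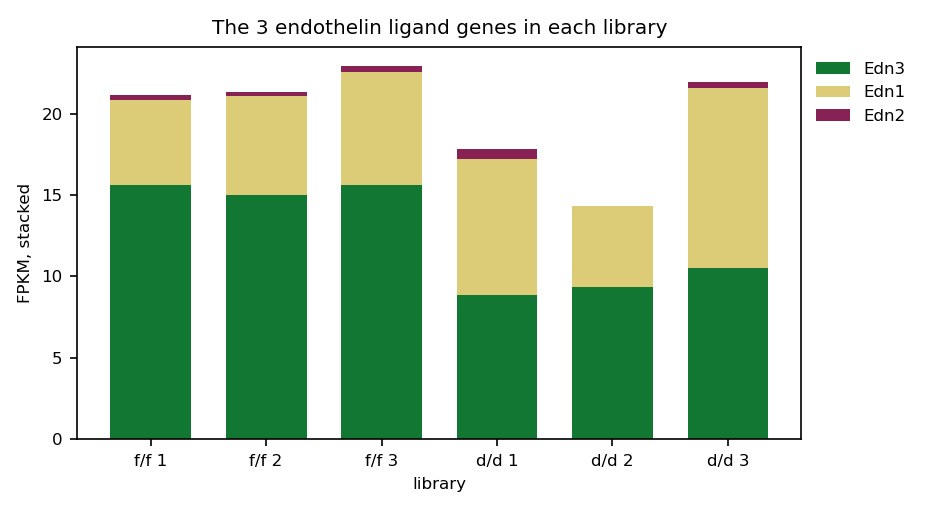
Stacked FPKM of Edn3, Edn1 and Edn2 in each library, f/f on the left and d/d on the right. Edn3 is the lower segment and is shorter in every d/d library (8.87 to 10.5) than in any f/f library (15 to 15.6), while the Edn1 segment ranges from 4.95 to 11.1 among d/d libraries.

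The receptor genes overlapped between the groups. Ednra (ENSMUSG00000031616; chromosome 8, 77663031 to 77724464, minus strand) had values of 32.1, 31.7 and 31.4 FPKM in controls and 29.5, 25.2 and 31.6 FPKM in d/d libraries 1, 2 and 3. Replicates 1 and 2 of the deleted uteri lay below every control, and replicate 3 lay inside the control range. The log2 difference was -0.14 with a standard error of 0.11, and it was -0.05 without d/d replicate 2 and -0.21 without d/d replicate 3. Ednrb (ENSMUSG00000022122; chromosome 14, 103814625 to 103844402, minus strand) had values of 8.47, 6.55 and 5.04 FPKM in controls and 7.21, 6.86 and 6.74 FPKM in d/d libraries. All 3 deleted values fell within the control range, and the log2 difference was 0.07 with a standard error of 0.17. It was -0.09 without f/f replicate 3 and 0.23 without f/f replicate 1. Ednra exceeded Ednrb in every library, by 3.79 to 6.23 times in controls and 3.67 to 4.68 times in deleted uteri. The ratio of Edn3 to Ednrb, its receptor, was 1.84 to 3.1 in controls and 1.23 to 1.55 in deleted uteri, without overlap. Edn3 by itself separated the groups and Ednrb did not, so this ratio is no separate result.

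The converting enzyme genes overlapped as well. Ece1 (ENSMUSG00000057530; chromosome 4, 137862237 to 137965229, plus strand), the enzyme that makes most active endothelin, had values of 30.9, 30.3 and 35.8 FPKM in controls and 27.6, 25.8 and 38.3 FPKM in d/d libraries 1, 2 and 3. Replicates 1 and 2 of the deleted uteri lay below every control and replicate 3 lay above every control. Its log2 difference was -0.10 with a standard error of 0.16, and it was 0.01 without d/d replicate 2 and -0.27 without d/d replicate 3. Ece2 (ENSMUSG00000022842; chromosome 16, 20629828 to 20646485, plus strand), a related enzyme that works at acidic pH and is best known from neural and endocrine tissue, had values of 4.41, 3.08 and 2.66 FPKM in controls and 3.32, 3.33 and 2.95 FPKM in d/d libraries. All 3 deleted values lay within the control range. The log2 difference was -0.04 with a standard error of 0.17, and it was 0.12 without f/f replicate 1 and -0.16 without f/f replicate 3. Ece1 exceeded Ece2 by 7.02 to 13.5 times in controls and by 7.75 to 13 times in deleted uteri.

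In GENCODE M21, Edn1 overlaps the antisense gene Gm47118, Ece1 the antisense gene Gm13012, Ednra the noncoding gene 4933431K23Rik on the opposite strand, and Ece2 the protein-coding gene Gm49333 on its own strand. None of these partners is listed in the deposited tables. These are overlaps of whole gene spans, exons were not compared, and whether counting used strand is not given in the sources used here. Whether reads of the partners entered the values of these 4 members is thus unknown, whereas no annotated gene overlaps Edn3, Ednrb or Edn2.

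Across all tested genes, limma called 0 of 12640 at an adjusted p of 0.05 (percent called 0), so that none of the 6 tested members was called either. At an unadjusted p of 0.05 limma gave 630 genes, or 4.98%. This count rested on single libraries, with 352 genes without d/d replicate 1, 1726 without d/d replicate 2, 1403 without d/d replicate 3, 359 without f/f replicate 1 and 353 without f/f replicate 3. The groups did not overlap for 10.7% of all tested genes, which were lower in deleted uteri for 4.6% and higher for 6.12%. With 1 library left out, which leaves fewer values to overlap, between 1900 and 4021 genes did not overlap, against 1356 with all 6, and the most were without d/d replicate 2 (4021) and d/d replicate 3 (3821). Among the 6 tested members this held for 1, Edn3. Since the members were selected with this comparison known, nothing is read from that count. Their median log2 difference was -0.07, with 2 of 6 above 0 and 4 below, against 0.03 over all tested genes. With array quality weights, which weigh each library by its fit to the model, limma called 316 genes (2.5% of those tested). The d/d group then rests mostly on d/d replicate 1, whose weight was 3.74 against 0.224 and 0.451 for d/d replicates 2 and 3. Without d/d replicate 2 limma called 12 genes (0.0949%).

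**Figure D3:**
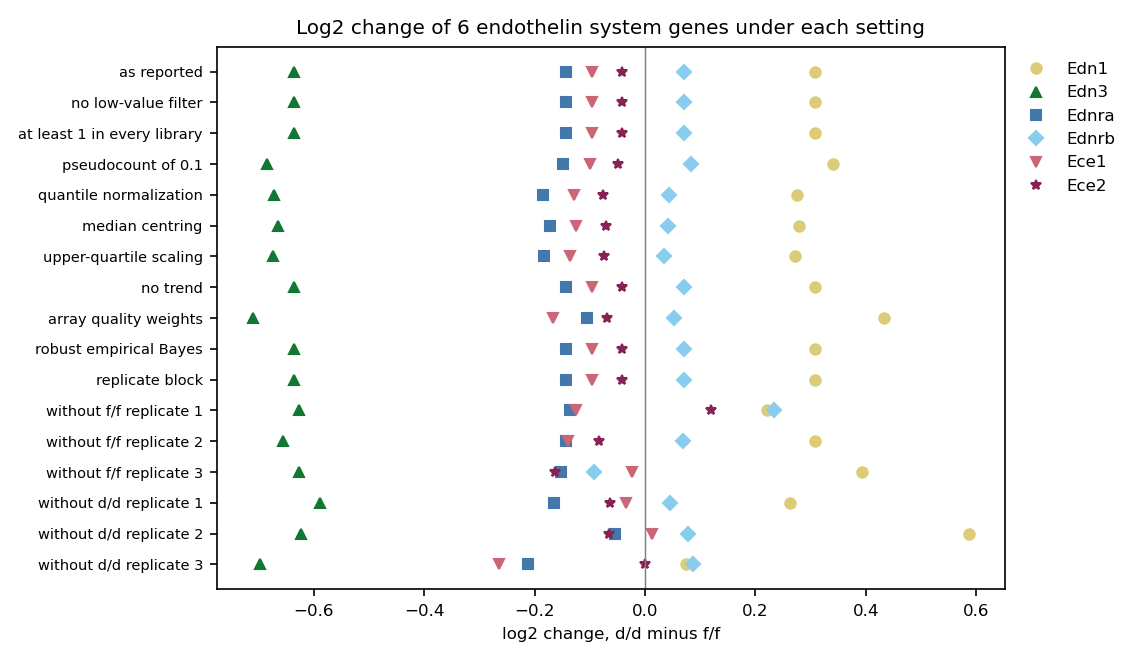
Log2 difference (d/d minus f/f, log2(FPKM + 1) except for the pseudocount of 0.1) of the 6 tested members under the reported setting and 16 alternatives, 1 row per setting. Edn3 stays between -0.71 and -0.59 in all of them, Edn1 ranges from 0.08 to 0.59, and Ednrb, Ece1 and Ece2 lie on both sides of 0.

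Genes around the endothelin system were then examined through 5 lists. They were chosen by known function but with earlier results of these data known, so their counts and p-values are descriptions and not tests. No list member passed an adjusted p of 0.05 in limma with all 6 libraries and without library weights. The first list, of 9 other peptidases, held enzymes that make or break down endothelins and relatives of such enzymes. Of these 9, 5 were tested, with 1 above 0 and 4 below and a median log2 difference of -0.13. At an unadjusted p of 0.05, 1 of the 5 was higher and 0 lower, against 2.68% and 2.3% of all tested genes. Mme, which encodes neprilysin, a protease that degrades endothelin, had values of 32.2, 23.2 and 22.5 FPKM in controls and 30.6, 32.3 and 41.1 FPKM in d/d libraries 1, 2 and 3. The groups overlapped, with f/f replicate 1 above d/d replicate 1 (log2 difference 0.41, SE 0.18; limma adjusted p 0.92). Mcpt4, a mast cell chymase that can also process big endothelin, had a log2 difference of -0.49 (SE 0.31), and Ctsa, a lysosomal carboxypeptidase, -0.14 (SE 0.15). When single libraries were left out, the difference ranged from -0.78 (without f/f replicate 2) to -0.26 (without f/f replicate 3) for Mcpt4 and from -0.23 (without d/d replicate 3) to -0.0016 (without d/d replicate 2) for Ctsa. Ecel1, Kel, Mmel1 and Phex stayed under 1 FPKM in every library. The first of these is a homologue of the converting enzymes, and Kel encodes the Kell protein, which can cleave big endothelin of the Edn3 type.

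Of 29 genes for G proteins, phospholipase C, calcium release, protein kinase C, arrestins and RGS proteins, 28 were tested and had a median log2 difference of -0.03. At an unadjusted p of 0.05, 2 were higher and 0 lower, where all tested genes gave 2.68% and 2.3%. Rgs4, which speeds the shut-off of Gq and Gi signals, was 4.75, 5.43 and 5.35 FPKM in controls and 8.28, 5.73 and 8.55 FPKM in d/d libraries, without overlap (log2 difference 0.45, SE 0.16; limma adjusted p 0.92). Gnai1, a G protein subunit of the Gi class, was 36.8, 39.3 and 37.9 FPKM in controls and 43.6, 49.8 and 45.9 FPKM in d/d libraries, also without overlap (log2 difference 0.28, SE 0.10). Plcb3, a phospholipase C that Gq activates, was below the controls in all 3 deleted libraries, at 16.9, 22.9 and 20.3 against 23.6 to 24.8 FPKM (log2 difference -0.27, SE 0.13; -0.16 without d/d replicate 1). With array quality weights, under which d/d replicate 1 carries most of the d/d weight, Rgs4 (0.59) and Plcb3 (-0.46) passed. Their limma adjusted p was then 0.0412 and 0.047 (over all settings 0.0412 to 0.9996 and 0.047 to 0.9996). Gna12, named after its values were seen, was the fourth gene of this list whose groups did not overlap, with a log2 difference of -0.24. It was at 50 to 54.7 FPKM in controls and 35.5, 48.5 and 48.2 FPKM in d/d libraries 1, 2 and 3, so most of its difference came from d/d replicate 1. These 4 of 28 stand against 10.7% of all tested genes.

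The 16 genes of myosin light chain control and calcium entry, the contractile machinery that receptor signalling reaches in smooth muscle, all passed the filter and spanned the narrowest range of the 5 lists. Their median log2 difference was 0.04, with a range of -0.20 to 0.15. The groups overlapped for every one of the 16, where 10.7% of all tested genes did not overlap. Arhgef12, a guanine nucleotide exchange factor, had a difference of -0.20 (SE 0.15), Myl9, the smooth muscle myosin light chain, 0.14 (SE 0.14), and Arhgef1 -0.09 (SE 0.10). Single libraries moved these as well, from -0.36 (without d/d replicate 3) to -0.11 (without d/d replicate 2) for Arhgef12, from 0.05 (without f/f replicate 3) to 0.22 (without f/f replicate 2) for Myl9, and to -0.05 (without d/d replicate 1) for Arhgef1. Of 21 genes of other vasoactive systems, 10 were tested, with a median of -0.12. Neither list held a gene with an unadjusted limma p under 0.05, a level that 4.98% of all tested genes reached. Nos3, the endothelial nitric oxide synthase that the type B receptor activates, was 7.92, 7.5 and 7.72 FPKM in controls and 6.61, 4.98 and 7.48 FPKM in d/d libraries, without overlap, although d/d replicate 3 nearly reached the lowest control (log2 difference -0.26, SE 0.15; limma adjusted p 0.92). Avpr1a, a vasopressin receptor gene, had a difference of 0.48 (SE 0.32), and Npr1, a natriuretic peptide receptor gene, -0.32 (SE 0.22), both with overlap. Leaving out single libraries moved these values, to -0.12 for Nos3 and -0.08 for Npr1 without d/d replicate 2, to -0.52 for Npr1 without d/d replicate 3, and to 0.10 for Avpr1a without d/d replicate 3.

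The last list held 13 transcription factors known to act on Edn1, all of them tested, with a median log2 difference of -0.01. Fos, a subunit of the AP-1 factor and an immediate early gene, was 1.8, 3.43 and 3.5 FPKM in controls and 5.62, 6.01 and 5.86 FPKM in d/d libraries 1, 2 and 3. It was higher in each deleted uterus than in any control (log2 difference 0.84, SE 0.20; limma unadjusted p 0.0036, adjusted p 0.92). Epas1 had a difference of -0.18 (SE 0.12) and Foxo1 of -0.13 (SE 0.11), which ranged from -0.28 (without d/d replicate 3) to -0.11 (without d/d replicate 1) and from -0.21 (without d/d replicate 3) to -0.06 (without d/d replicate 2).

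**Figure D4:**
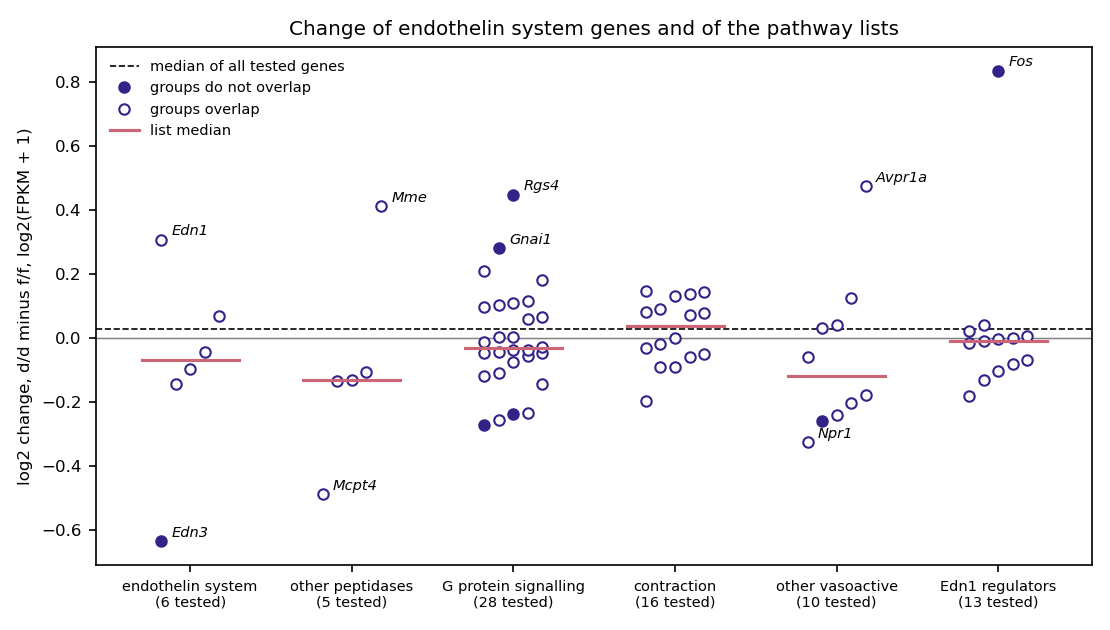
Log2 difference (d/d minus f/f, log2(FPKM + 1)) of each tested gene of the endothelin system and of the 5 pathway lists, with filled symbols where the groups do not overlap, a red bar at each list's median and a dashed line at the median of all tested genes, 0.03. Edn3 lies at -0.64 and Fos at 0.84, and the contraction list spans the narrowest range, -0.20 to 0.15.

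Several cell types of the uterus can express these genes, and in whole tissue fewer cells of a type and less RNA per cell cannot be told apart. Marker levels are therefore given beside Edn3 and Edn1. Over all 12640 tested genes the mean was lower in deleted uteri for 5486 and higher for 7154, and the groups did not overlap for 4.6% in the lower and 6.12% in the higher direction. Of 6 stromal markers 5 were lower on average, with a median log2 difference of -0.25, and for none did the groups separate. Their summed levels were 2567 to 2844 FPKM in controls and 2139 to 2849 FPKM in deleted uteri. Replicate 2 of the deleted uteri stood apart. Col1a1, Col1a2 and Lum were above every control in it and below every control in d/d replicates 1 and 3. Vcan was also highest in d/d replicate 2, while Pdgfra and Dcn were lowest there. Of 4 tested mesothelial markers 3 were lower, 2 of them without overlap, with a median of -0.41 and sums of 57.2 to 71.3 FPKM in controls and 55.6 to 66.1 FPKM in deleted uteri. Endothelial markers were lower for 9 of 10, 3 without overlap, with a median of -0.17 and sums of 413 to 474 and 371 to 468 FPKM. Other lists had negative medians too, at -0.17 for pericyte, -0.15 for lymphatic, -0.17 for mast cell, -0.08 for macrophage and -0.98 for blood markers. Smooth muscle was at 0.0004 and epithelium at 0.24. The part of any of these cell types in the lower Edn3 was not tested.

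For Edn1, the libraries at the extremes of its range were also at the extremes of the proliferation markers, in the opposite direction. The summed level of 8 proliferation markers was 70.4, 17.4 and 41.5 FPKM in controls and 14.9, 160 and 8.09 FPKM in d/d libraries 1, 2 and 3. The d/d replicate with the least Edn1 (replicate 2) had the highest sum, and the one with the most Edn1 (replicate 3) the lowest. Epithelial markers were higher on average for 6 of 7, 3 of them without overlap (6.12% of all tested genes were higher in this way), with a median log2 difference of 0.24 and sums of 596 to 692 FPKM in controls and 665 to 765 FPKM in deleted uteri. The part of either in the Edn1 values was not tested. Ovarian markers summed to 6.36 to 9.91 FPKM in controls and 5.81 to 10.5 FPKM in deleted uteri. Inha, at 5 to 7.04 and 5.06 to 9.24 FPKM, made up most of this sum, and Gdf9 was at 0.826 to 1.58 and 0.395 to 1.22 FPKM. Amh, Cyp11a1 and Bmp15 stayed under 1 FPKM in every library, and Fshr and Zp3 were listed at 0 in all of them.

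The genes with the most similar pattern over the 6 libraries were sought for each tested member by the root mean square difference in log2(FPKM + 1), each gene taken relative to its control mean. For Edn3 these were Hs3st1 (0.08), Gria1 (0.09) and Wnt2b (0.10), and no other of the 12639 genes lay within 0.1. Hs3st1, a heparan sulfate sulfotransferase gene, was 8.29, 8.33 and 9 FPKM in controls and 4.98, 5.83 and 5.82 FPKM in d/d libraries. Gria1, a glutamate receptor subunit gene, was 4.45, 4.47 and 4.1 in controls and 2.62, 2.37 and 3 FPKM in d/d libraries, and Wnt2b, a Wnt ligand gene, was 5.69, 5.89 and 6.08 in controls and 2.59, 3.1 and 3.83 FPKM in d/d libraries. Since these genes were chosen for their likeness to Edn3 in the same libraries, their own group differences are no separate result. For Edn1 the nearest genes were Pax8, Tuft1 and Sh3rf2 (0.08 each), with 7 genes within 0.1. Pax8, a transcription factor of Müllerian epithelium, was 10.1, 12.1 and 13 FPKM in controls and 14.7, 8.82 and 19.3 FPKM in d/d libraries, with the same low replicate 2 and high replicate 3 as Edn1.

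**Figure D5:**
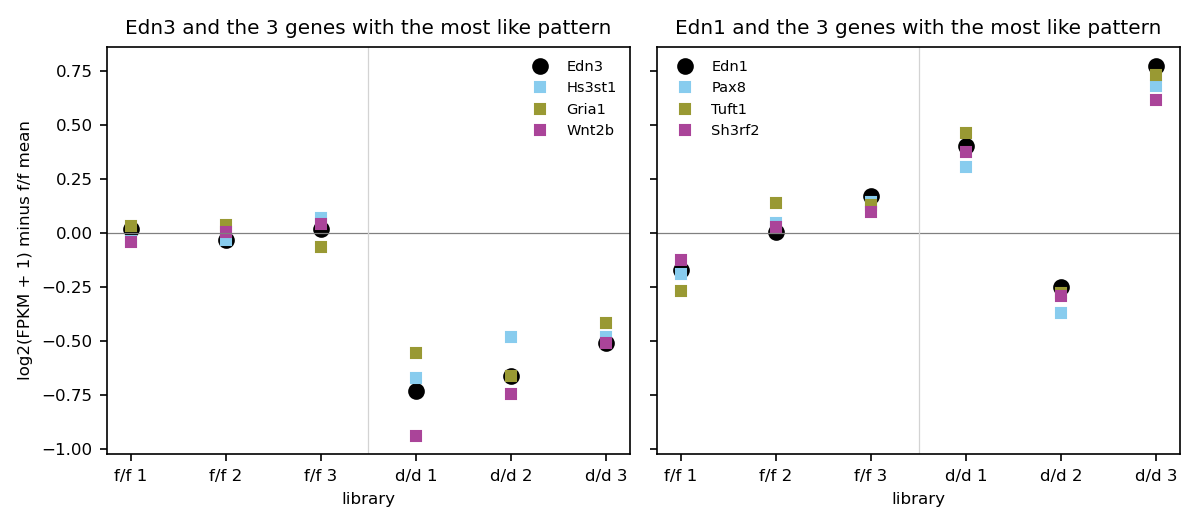
Log2(FPKM + 1) relative to the f/f mean in each library for Edn3 (left, black) with Hs3st1, Gria1 and Wnt2b, and for Edn1 (right, black) with Pax8, Tuft1 and Sh3rf2. The left-hand genes are low in all 3 d/d libraries, and the right-hand genes are low in d/d replicate 2 and high in d/d replicate 3.

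The remaining members had flatter profiles with many near neighbours, so that likeness singles out little for them. Within 0.1 of Ednra lay 618 genes, led by Iqsec2, Senp7 and Zswim6 (0.03, 0.03 and 0.04). Within 0.1 of Ece1 lay 267 genes, led by Myo10, Rnf150 and Adamtsl1 (0.02, 0.04 and 0.04). Myo10, an unconventional myosin gene, was 18.8, 18 and 21 FPKM in controls and 16.8, 15 and 23 FPKM in d/d libraries, with the same low replicates 1 and 2 and high replicate 3 as Ece1. For Ednrb (18 genes within 0.1) the nearest were Polr3g, Prrg1 and Bag4, and for Ece2 (34 genes) they were Slc7a10, Abhd8 and Smim10l1.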

How the data were processed

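Whole uteri of 3 Nat10 f/f and 3 Nat10 d/d female mice were profiled by poly(A) RNA-seq with the TruSeq RNA kit after TRIzol extraction, per the labels' protocols. The submitters' processing notes name HISAT2 2.2.1, Cufflinks 2.2.1 and mm10. The annotation, strandedness and gene filter are not given in the sources used here. The authors deposited 1 table per library with 20637 genes. The deposited values were taken as FPKM, a unit inferred from the tool named and from column sums that differ between libraries. FPKM divides by gene length and library depth, so depth per gene cannot be recovered and no counting interval is given. Relative depth was estimated from the ratio of the lowest values between libraries. No pair of libraries held identical values. Of the gene identifiers, 20558 were found in GENCODE M21 (GRCm38, the assembly that mm10 names) and 79 were not. All 7 members were found, and coordinates and sequences come from that release.

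Values were analysed as log2(FPKM + 1). The 12640 genes with at least 1 FPKM in at least 3 libraries were fitted with limma 3.58.1 in R 4.3.3 (mean-variance trend, group as the only term, all 6 libraries), with two-sided p-values adjusted by Benjamini-Hochberg over all tested genes and a threshold of 0.05. The fit was tested on simulated data. The members and lists were chosen with earlier results of these data known. Named genes are the 7 members, Nat10, up to 3 genes with the smallest p per pathway list and the 3 most alike in pattern per member. Gna12, single marker genes and list genes near or at 0 FPKM are named outside this rule, after their values were seen. Of the marker lists, lymphatic, pericyte, mast cell, macrophage and blood markers had median log2 differences of -0.15, -0.17, -0.17, -0.08 and -0.98, smooth muscle 0.00, mesothelium -0.41, ovary -0.00 and proliferation -0.30. Blood markers summed to 5581, 2629 and 851 FPKM in controls and 709, 1723 and 1111 FPKM in d/d libraries 1, 2 and 3. Single libraries thus weigh heavily on the blood median, and on that of proliferation, whose sums are given above. One further marker list is not reported here. Python 3.11.15 with pandas 2.3.3 joined the tables, and figures were drawn with matplotlib 3.10.9.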

Additional observations from a re-analysis of the deposited data

How the results depend on the processing

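Edn3 kept its direction under all 16 alternatives, with log2 differences from -0.71 (array quality weights) to -0.59 (without d/d replicate 1). Of these, quantile normalization, median centring and upper-quartile scaling are the 3 that could have made its groups overlap, and under them they did not. Each other tested member moved by less than its spread between replicates under these alternatives. The number of genes with an adjusted p under 0.05 in limma was 316 with array quality weights and 0 to 12 when 1 library was left out, with 12 (0.0949% of those tested) without d/d replicate 2. The array quality weight of that library was 0.224, against 3.74 for d/d replicate 1 and 0.451 for d/d replicate 3. The d/d side of the weighted fit thus rests mostly on d/d replicate 1. With these weights the log2 difference of Nat10 was -1.09 and passed (limma adjusted p 0.0386; range over its settings 0.0386 to 1). Quantile normalization, median centring and upper-quartile scaling moved the balance at an unadjusted p under 0.05 from 339 higher and 291 lower to 259 and 414, 248 and 376, and 232 and 399, and array quality weights gave 3730 genes at that level, while under the 3 scalings the median of all genes moved by less than 0.1 on the log2 scale. Across all genes, deviations of same-numbered libraries correlated at -0.34, -0.03 and 0.10, and 1 of 6 libraries correlated best with its own number, so the numbers were not taken as pairs. With the replicate block, 0 genes were called and the difference of Edn3 was -0.64. Alternatives that need counts were not run. Low values limit what can be said of Edn2, which lay under 1 FPKM in every library.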
